A study of Mus musculus with 9 samples.

Results

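The genes described here are 9 enzymes that oxidise choline or build phosphatidylcholine and phosphatidylethanolamine in mouse liver: Chdh, Aldh7a1, Dmgdh, Sardh, Chka, Chkb, Pcyt1a, Pcyt2 and Lpcat3. They were taken by gene name from an expression table of 21898 genes, each name matched 1 row, and 8 of the 9 had enough counts to be tested. Liver RNA of C57BL/6 mice was sequenced in 9 libraries, 3 per group. The TA group ate an MCD diet, which lacks methionine and choline, and received tormentic acid, a plant triterpenoid, at what the labels call a high dose. The model group ate the same diet, which produces fatty liver, and the normal group was the reference and received saline. The labels give no genotype beyond WT for the normal group, and the sources used here give neither sex, age, the amount of tormentic acid nor how long it was given. Whether a library stands for its own mouse is not stated either, so the p-values speak of the spread among these libraries, which may be technical.

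Choline has a pair of main fates in the liver. In mitochondria it is oxidised to betaine, whose methyl groups are passed on, by way of dimethylglycine and sarcosine, to homocysteine and to folate. In the cytosol and endoplasmic reticulum it is phosphorylated, activated with CTP and joined to diacylglycerol to make phosphatidylcholine, the main phospholipid of membranes and of secreted lipoproteins; a parallel branch uses ethanolamine, and acyltransferases then exchange the fatty acids of the finished lipid. The comparison of model with normal livers asks how these genes stood on the MCD diet against the reference group. That of TA with model livers asks how they stood when tormentic acid was given on the same diet.

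Total counts were 13710002 to 16464308 per TA library, 15519086 to 16086294 per model library and 13950065 to 16475794 per normal library. Levels are given as CPM, counts set to a common library size after scaling with TMM factors (trimmed mean of M-values), which lay at 0.801 to 1.005 for TA, 1.186 to 1.436 for model and 0.824 to 0.842 for normal livers. With library totals alone the median log2 fold change of all genes was 0.69 in model against normal livers. It was -0.59 in TA against model and 0.14 in TA against normal livers, so each change below is relative to the median gene. A gene is said to have risen or fallen only at an adjusted p under 0.05 in edgeR's quasi-likelihood test over the 13200 genes tested. Log2 fold changes carry their standard error after ±. Summed over 8 hepatocyte markers, CPM ranged from 105000 to 141000 in TA, from 46000 to 76900 in model and from 117000 to 142000 in normal libraries, and no marker was at 0. In these bulk samples, fewer hepatocytes and less RNA per hepatocyte cannot be told apart.

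Of the 8 tested genes, 6 fell and 0 rose in model against normal livers. These were Sardh, Aldh7a1, Dmgdh, Pcyt2, Chdh and Lpcat3. Of all genes tested, 48.1% were called in that comparison, 22.6% lower and 25.4% higher. In TA against model livers 5 rose (Sardh, Aldh7a1, Dmgdh, Chdh and Pcyt2) and 1, Chka, fell, where 23.0% of all genes were called, 11.8% higher and 11.1% lower. With library totals 3 fell in model livers (Sardh, Aldh7a1 and Dmgdh), and 2 rose and 1 fell in TA against model livers. Without model replicate 1 or without model replicate 3 only 2 rose, Sardh and Aldh7a1. Without normal replicate 1, normal replicate 2 or TA replicate 2 the number was 3, Dmgdh included. In TA against normal livers none of the 8 was called in either direction by the edgeR fit reported here. Chka was called lower there in 9 of 17 alternative settings. These included DESeq2, limma-voom, and edgeR with DESeq2 size factors or with no filter on low counts. In the reported fit 1 of the 8 had an unadjusted p under 0.05 in that comparison, again Chka. Of all genes, 15.8% were called in that comparison, 10.7% higher and 5.03% lower. Libraries of the groups did not overlap in CPM for 61.3% of all genes in model against normal livers. That share was 39.0% in TA against model and 36.1% in TA against normal livers. The share with all 3 groups apart was not computed. The comparisons share libraries, the model group standing in both of the main ones, so opposite signs in them are not independent.

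**Figure D1:**
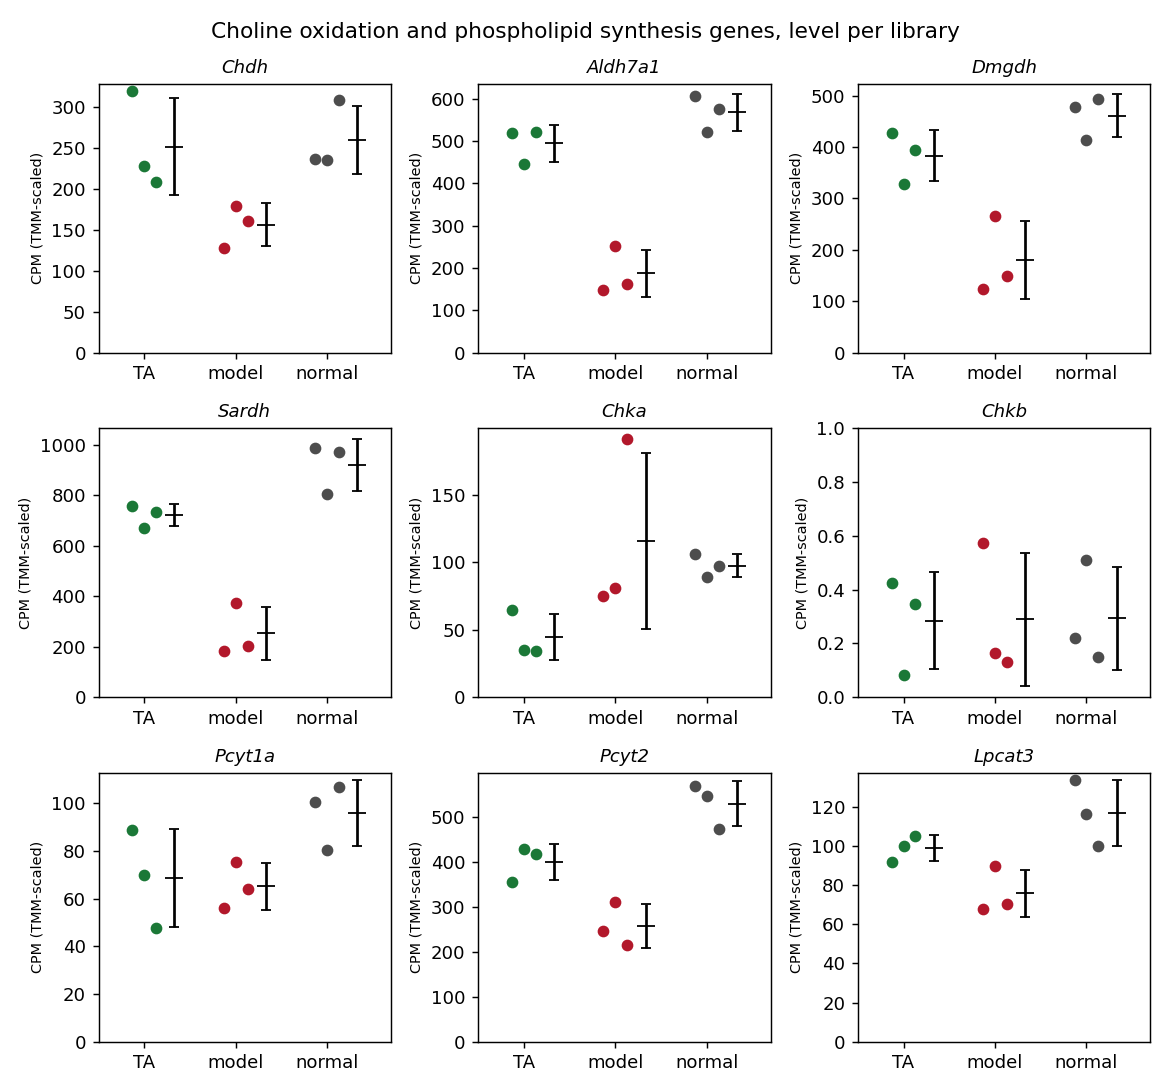
Level of each of the 9 genes in every library, in CPM after TMM scaling (vertical axis, from 0), for TA, model and normal livers; points are libraries and the black bars give the mean ± SD of 3. For Aldh7a1, Dmgdh, Sardh, Chdh, Pcyt2 and Lpcat3 all 3 model libraries lie below all TA and normal libraries. For Chka the TA libraries are the lowest. Of all genes, 61.3% had no overlap in model against normal, 39.0% in TA against model and 36.1% in TA against normal livers.

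In model against normal livers the 3 mitochondrial enzymes downstream of choline dehydrogenase had the largest fold changes of the 8 tested genes, under TMM scaling. Sardh (ENSMUSG00000009614, chromosome 2, 27188393 to 27248337 on GRCm38, minus strand) encodes sarcosine dehydrogenase, which removes the last methyl group of the pathway and leaves glycine. It stood at 757, 671 and 732 CPM in TA replicates 1 to 3, at 182, 373 and 204 CPM in model replicates and at 986, 803 and 971 CPM in normal replicates. The model libraries lay below both other groups without overlap, and model replicate 2 was the highest of them. A lack of overlap was found for 61.3% of all genes in model against normal and 39.0% in TA against model livers. Sardh fell 3.64-fold in model against normal livers (log2 fold change -1.86 ± 0.27, adjusted p = 0.000253) and rose 2.85-fold in TA against model livers (1.51 ± 0.27, adjusted p = 0.00434). In TA against normal livers the log2 fold change was -0.35 ± 0.26 (95% interval -0.93 to 0.22, adjusted p = 0.393), although the TA libraries lay below the normal ones without overlap, as for 36.1% of all genes.

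Dmgdh (ENSMUSG00000042102, chromosome 13, 93674433 to 93752833 on GRCm38, plus strand) encodes dimethylglycine dehydrogenase, the preceding step, which like Sardh passes its electrons to the electron transfer flavoprotein and its methyl group to folate. It stood at 427, 329 and 395 CPM in TA replicates 1 to 3, at 124, 266 and 149 CPM in model replicates and at 478, 413 and 493 CPM in normal replicates. The model group again lay apart, as it did from normal libraries for 61.3% of all genes and from TA libraries for 39.0%. Model replicate 2 was nearest to the other groups. Dmgdh fell 2.57-fold in model against normal livers (log2 fold change -1.36 ± 0.27, adjusted p = 0.00167) and rose 2.13-fold in TA against model livers (1.09 ± 0.27, adjusted p = 0.0144). The call of the rise ended without model replicate 1 (0.89, adjusted p = 0.0544), without model replicate 3 (0.98, adjusted p = 0.0646) and with library totals (0.56, adjusted p = 0.066), over a range of 0.000532 to 0.066.

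Aldh7a1 (ENSMUSG00000053644, chromosome 18, 56509687 to 56572951 on GRCm38, minus strand) encodes antiquitin, an aldehyde dehydrogenase that turns betaine aldehyde into betaine and also acts in lysine breakdown. It stood at 518, 445 and 522 CPM in TA replicates 1 to 3, at 148, 251 and 163 CPM in model replicates and at 607, 520.4 and 576 CPM in normal replicates. The model libraries were the lowest 3 of the 9. Model and normal libraries lay apart for 61.3% of all genes, and TA and model libraries for 39.0%. Aldh7a1 fell 3.03-fold in model against normal livers (log2 fold change -1.60 ± 0.22, adjusted p = 0.000198) and rose 2.64-fold in TA against model livers (1.40 ± 0.22, adjusted p = 0.003). Aldh7a1 and Sardh kept both calls in all 17 alternative settings, library totals and each left-out library included.

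Chdh (ENSMUSG00000015970, chromosome 14, 30009023 to 30040527 on GRCm38, plus strand) encodes choline dehydrogenase, which commits choline to oxidation at the inner mitochondrial membrane. It stood at 319, 227 and 208 CPM in TA replicates 1 to 3, at 128, 179 and 161 CPM in model replicates and at 237, 235 and 308 CPM in normal replicates. TA and normal libraries overlapped and model libraries lay below both. Over all genes, 61.3% had no overlap in model against normal and 39.0% in TA against model livers. Chdh fell 1.67-fold in model against normal livers (log2 fold change -0.74 ± 0.22, adjusted p = 0.015) and rose 1.61-fold in TA against model livers (0.69 ± 0.22, adjusted p = 0.0396). The call of the fall ended with library totals (-0.06, adjusted p = 0.842), without normal replicate 3 (adjusted p = 0.0673) and without model replicate 1 (adjusted p = 0.0615), over a range of 0.00245 to 0.842. That of the rise ended in 9 of 17 settings, over a range of 0.014 to 0.622, and with library totals the log2 value was 0.14.

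Within each library, where scaling does not enter, Dmgdh stood higher relative to Sardh in the model livers than in either other group. The log2 ratio of Dmgdh to Sardh, from counts per kilobase, was -0.25 ± 0.10 in TA, 0.17 ± 0.05 in model and -0.32 ± 0.05 in normal libraries (mean ± SD, n = 3 each). All 3 model libraries lay between 0.12 and 0.22 and all others at or below -0.16. The difference was 0.50 for model against normal and -0.42 for TA against model, each with a two-sided exact permutation p = 0.1, the smallest that 3 against 3 libraries allow. For TA against normal it was 0.08 (exact permutation p = 0.3). Model replicate 2, which had the highest Sardh, Dmgdh and Aldh7a1 of its group, also had the highest hepatocyte marker sum, 76900 CPM against 46000 and 49300 in model replicates 1 and 3. Of the 8 hepatocyte markers, 7 fell and 0 rose in model against normal livers, where 22.6% of all genes fell and 25.4% rose. In TA against model livers 6 markers rose and 0 fell, where 11.8% of all genes rose and 11.1% fell. The part of these marker changes in the results above was not tested.

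**Figure D2:**
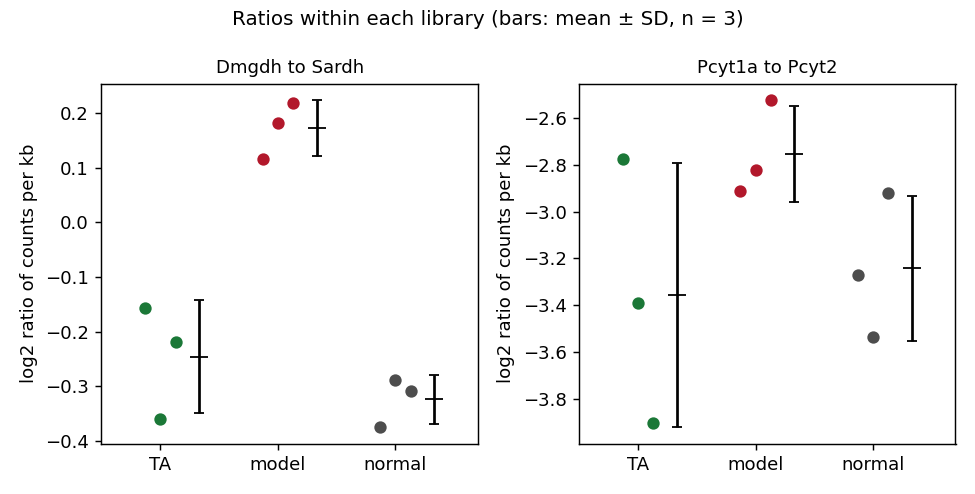
Log2 ratio of counts per kilobase within each library for Dmgdh to Sardh (left) and Pcyt1a to Pcyt2 (right) in TA, model and normal livers; points are libraries and bars the mean ± SD of 3. The 3 model libraries stand above all others for Dmgdh to Sardh, while for Pcyt1a to Pcyt2 the TA libraries spread from -3.91 to -2.77.

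The kinase that starts phosphatidylcholine synthesis moved differently. Chka (ENSMUSG00000024843, chromosome 19, 3851773 to 3894369 on GRCm38, plus strand) encodes choline kinase alpha, which phosphorylates choline and, less well, ethanolamine. It stood at 64.5, 35.0 and 34.4 CPM in TA replicates 1 to 3, at 75.2, 81.0 and 191 CPM in model replicates and at 106, 89.1 and 97.4 CPM in normal replicates. The TA libraries were the lowest 3 of the 9, and model replicate 3 was far above every other library. TA libraries lay apart from model libraries for 39.0% of all genes and from normal libraries for 36.1%. Chka fell 2.59-fold in TA against model livers (log2 fold change -1.37 ± 0.35, adjusted p = 0.018). Without model replicate 3 the change was -0.80 (adjusted p = 0.0672), and the call also ended without TA replicate 2 (-1.22, adjusted p = 0.0655) and without TA replicate 3 (-1.21, adjusted p = 0.0763), over a range of 0.000842 to 0.0763.

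In TA against normal livers the log2 fold change of Chka was -1.12 ± 0.35, just outside the threshold (adjusted p = 0.0502). It was called lower there in 9 of 17 settings, over a range of 0.01 to 0.151, and without TA replicate 1 it stood at -1.52 (adjusted p = 0.0205). For model against normal the log2 fold change was 0.25 ± 0.34 (95% interval -0.51 to 1, adjusted p = 0.574). Without model replicate 3 it was -0.32 (adjusted p = 0.359), so 1 library set its sign, and with library totals it was 0.97 (adjusted p = 0.0559).

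Chkb (ENSMUSG00000022617, chromosome 15, 89426360 to 89429908 on GRCm38, minus strand) encodes choline kinase beta, whose loss in mice causes a muscular dystrophy. It had only 1 to 7 counts per TA library, 3 to 13 per model library and 2 to 6 per normal library. The sums over 3 libraries were 12 (95% Poisson interval 6.2 to 21), 19 (11.4 to 29.7) and 11 (5.49 to 19.7) in TA, model and normal livers, where the intervals cover counting error only and overlap widely. Chkb was therefore left out by the filter on low counts, and with no filter its log2 fold change was 0.01 for model against normal (95% interval -1.83 to 1.85, adjusted p = 1 in edgeR's test). A difference was not detectable at this depth. In the annotation, 50.7% of its exonic bases are shared with Gm44502, a gene on the same strand that joins Chkb to Cpt1b and had 0 counts in every library, so the counts listed for Chkb are uncertain. Cpt1b, whose exons that gene also spans, had 2 to 11 counts per library.

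Pcyt1a (ENSMUSG00000005615, chromosome 16, 32430921 to 32475070 on GRCm38, plus strand) encodes the main enzyme that activates phosphocholine with CTP, the rate-controlling enzyme of the choline branch. It stood at 88.7, 69.8 and 47.7 CPM in TA replicates 1 to 3, at 55.9, 75.4 and 64.2 CPM in model replicates and at 101, 80.4 and 107 CPM in normal replicates. Model libraries lay below normal ones without overlap, and TA libraries overlapped both. The log2 fold change of Pcyt1a was -0.56 ± 0.22 for model against normal (95% interval -1.04 to -0.08, adjusted p = 0.054), 0.08 ± 0.22 for TA against model (-0.40 to 0.56, adjusted p = 0.828) and -0.48 ± 0.22 for TA against normal (adjusted p = 0.161). For model against normal 6 of 17 settings called it lower, and library totals turned it to 0.12 (adjusted p = 0.697), over a range of 0.0227 to 0.697. Of all genes, 61.3% had no overlap between model and normal libraries.

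Pcyt2 (ENSMUSG00000025137, chromosome 11, 120610087 to 120617936 on GRCm38, minus strand) encodes the matching enzyme of the ethanolamine branch, which activates phosphoethanolamine with CTP. It stood at 356, 429.5 and 419 CPM in TA replicates 1 to 3, at 247, 312.5 and 216.5 CPM in model replicates and at 571, 547 and 474 CPM in normal replicates. The 3 groups did not overlap, with TA libraries between the others. Groups lay apart for 61.3% of all genes in model against normal, 39.0% in TA against model and 36.1% in TA against normal livers. Pcyt2 fell 2.05-fold in model against normal livers (log2 fold change -1.04 ± 0.20, adjusted p = 0.00129) and rose 1.55-fold in TA against model livers (0.63 ± 0.19, adjusted p = 0.0366). With library totals the values were -0.36 (adjusted p = 0.0632) and 0.06 (adjusted p = 0.747), and the rise lost its call in 10 of 17 settings, over a range of 0.0038 to 0.747. In TA against normal livers the log2 fold change was -0.40 ± 0.19 (adjusted p = 0.18).

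The log2 ratio of Pcyt1a to Pcyt2 within a library was -3.36 ± 0.57 in TA, -2.75 ± 0.20 in model and -3.24 ± 0.31 in normal libraries (mean ± SD, n = 3 each). The difference was 0.49 for model against normal (two-sided exact permutation p = 0.1, the smallest possible), but the lowest model library, at -2.91, lay next to the highest normal one, at -2.92. For TA against model it was -0.60 (exact permutation p = 0.3), since TA replicate 1 lay within the model range. The ratio of Chka to Chkb rests on the few Chkb counts and is not given further.

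Lpcat3 (ENSMUSG00000004270, chromosome 6, 124663027 to 124704418 on GRCm38, plus strand) encodes an acyltransferase that puts polyunsaturated fatty acids into phosphatidylcholine. It stood at 91.8, 99.9 and 105 CPM in TA replicates 1 to 3, at 67.7, 89.6 and 70.2 CPM in model replicates and at 134, 116 and 100.2 CPM in normal replicates. Model libraries were the lowest 3, and TA and normal libraries overlapped. The model group lay apart from normal libraries for 61.3% of all genes and from TA libraries for 39.0%. Lpcat3 fell 1.54-fold in model against normal livers (log2 fold change -0.62 ± 0.17, adjusted p = 0.00973), but with library totals it stood at 0.05 (adjusted p = 0.774), over a range of 0.00116 to 0.774. For TA against model the log2 fold change was 0.39 ± 0.17 (adjusted p = 0.118), or 0.53 without model replicate 2 (adjusted p = 0.0357), and library totals turned it to -0.19 (adjusted p = 0.307).

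**Figure D3:**
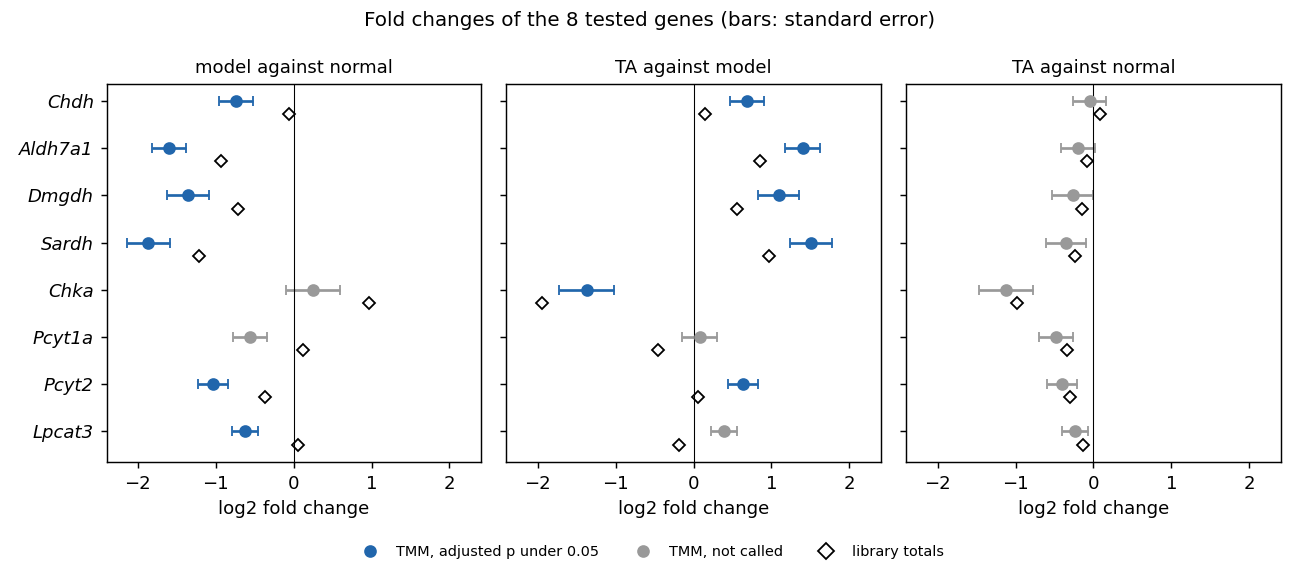
Log2 fold changes of the 8 tested genes for model against normal, TA against model and TA against normal; circles are TMM-scaled values with bars of 1 standard error, blue where the adjusted p was under 0.05, and open diamonds the values with library totals. Sardh, Aldh7a1, Dmgdh, Chdh, Pcyt2 and Chka keep their sign under both scalings in both main comparisons, while Lpcat3 and Pcyt1a cross 0.

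Per kilobase of exon, Sardh had the highest mean of the 9 in TA and normal livers and Pcyt2 in model livers. In TA livers the spread of Sardh touched that of Dmgdh (112 ± 14.7), though Sardh stood above Dmgdh within each library. In model livers Pcyt2 was not resolved from Dmgdh. Levels in CPM per kilobase were 133 ± 8.15 in TA, 46.6 ± 19.2 in model and 169 ± 18.8 in normal livers for Sardh and 92.3 ± 9.17, 59.6 ± 11.3 and 122 ± 11.6 in the same order of groups for Pcyt2 (mean ± SD, n = 3). In normal livers Dmgdh (135 ± 12.4), Pcyt2 and Aldh7a1 (110 ± 8.44) followed Sardh. The spread of Dmgdh lay below that of Sardh without touching it. That of Pcyt2 touched those of Dmgdh and Aldh7a1. Chdh (41.8 ± 6.69) and Lpcat3 (35.8 ± 5.19) could not be ranked beyond their spread and lay below these. Pcyt1a (12.96 ± 1.87) and Chka (8.10 ± 0.694) were lower again, and Chkb stood at 0.0959 ± 0.0627. In model livers the spreads of Pcyt2, Dmgdh (52.7 ± 22.1) and Sardh overlapped, and those of Dmgdh and Sardh overlapped that of Aldh7a1 (36.2 ± 10.8), while all 3 Pcyt2 libraries lay above all 3 of Aldh7a1. These spreads are between libraries. Within each model library Dmgdh stood above Sardh and Sardh above Aldh7a1, and Pcyt2 stood above Sardh as well. In TA livers Chka, at 3.71 ± 1.43 CPM per kilobase, lay below Pcyt1a at 9.27 ± 2.77.

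Promoter sequences are shown for Sardh and Dmgdh, which acted in sequence and moved together, and for Chka, which did not follow them. Each is the RefSeq window from 250 bases before to 50 after the start of transcription on GRCm38.p6, written 5′ to 3′ on the gene's strand. Capitals mark matches on either strand to the motifs searched: AP-1 (TGANTCA), the CRE core (TGACGT), the E-box (CACGTG), the GC box (GGGCGG), the CCAAT box (CCAAT) and the antioxidant response element (TGACNNNGC), where neighbouring GC boxes can overlap.
Sardh, chr2:27247254-27247553, minus strand: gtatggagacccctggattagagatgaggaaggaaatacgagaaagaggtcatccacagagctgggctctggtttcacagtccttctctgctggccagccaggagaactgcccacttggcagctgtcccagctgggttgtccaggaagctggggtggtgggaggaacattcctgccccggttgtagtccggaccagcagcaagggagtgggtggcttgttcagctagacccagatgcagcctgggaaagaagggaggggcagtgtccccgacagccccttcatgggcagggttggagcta
Dmgdh, chr13:93674186-93674485, plus strand: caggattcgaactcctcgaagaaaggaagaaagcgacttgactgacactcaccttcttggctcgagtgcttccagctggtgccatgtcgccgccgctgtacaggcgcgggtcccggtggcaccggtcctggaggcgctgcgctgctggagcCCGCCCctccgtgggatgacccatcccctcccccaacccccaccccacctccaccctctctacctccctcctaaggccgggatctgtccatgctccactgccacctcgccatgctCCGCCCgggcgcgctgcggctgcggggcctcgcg
Chka, chr19:3851523-3851822, plus strand: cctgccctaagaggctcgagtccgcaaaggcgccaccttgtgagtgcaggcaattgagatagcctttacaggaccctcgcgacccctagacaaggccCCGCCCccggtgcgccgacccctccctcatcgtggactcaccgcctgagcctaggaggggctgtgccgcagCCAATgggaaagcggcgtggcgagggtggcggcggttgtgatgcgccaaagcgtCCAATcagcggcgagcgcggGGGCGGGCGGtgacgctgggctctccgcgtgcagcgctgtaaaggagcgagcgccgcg

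The Sardh window held none of the 6 motifs and had 59% G and C. The Dmgdh window held 2 GC boxes and the Chka window 3 GC boxes and 2 CCAAT boxes, with 68% and 68.7% G and C. Among all 32851 promoter windows of the same length, 35.7% held a GC box and 37.4% a CCAAT box, while 7.81% held AP-1, 7.51% the CRE core, 7.15% the E-box and 12.4% the antioxidant response element. Windows were read for 7 of the 9 genes, and those on chromosome 18, where Aldh7a1 lies, were left out. Among the others, Chdh held 1 AP-1 match, 6 bases before its outermost start, and Chkb held 1 CRE core. Pcyt1a held matches to the antioxidant response element in 2 of its 3 windows. Those 2 windows overlap, and the only match in 1 of them is the same site as a match in the other. Lpcat3 held 6 GC boxes and 4 CCAAT boxes. A match is a description of the letters in these windows only.

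The partners of choline oxidation outside the 9 genes, a list written with earlier results of these data known, mostly fell in the model livers too. Of 17 genes, 14 fell and 0 rose in model against normal livers, where 22.6% of all genes fell and 25.4% rose. The median log2 fold change was -1.19 against 0.00 over all genes. In TA against model livers 8 rose and 1 fell, where 11.8% of all genes rose and 11.1% fell, with a median of 0.81 against -0.01. With library totals 10 fell, and 4 rose and 1 fell, where 831 of 13200 genes fell, and 401 rose and 5721 fell. Bhmt was called in neither comparison (-1.19 ± 0.71, adjusted p = 0.187, and 0.49 ± 0.70, adjusted p = 0.645). Gnmt, which methylates glycine to sarcosine and so makes the substrate of Sardh, stood at 768, 962 and 1035 CPM in TA replicates 1 to 3, at 260.0, 339.8 and 217 CPM in model replicates and at 2190, 1392 and 1703 CPM in normal replicates. The 3 groups did not overlap, where 61.3% of all genes lay apart in model against normal, 39.0% in TA against model and 36.1% in TA against normal livers. Gnmt fell in model against normal livers (log2 fold change -2.69 ± 0.26, adjusted p = 1.68e-05) and rose in TA against model livers (1.76 ± 0.25, adjusted p = 0.00216).

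Pipox, a peroxisomal oxidase that also breaks down sarcosine, stood at 219, 291 and 344 CPM in TA, at 85.2, 103 and 69.0 CPM in model and at 350.2, 315 and 305 CPM in normal replicates 1 to 3. TA and normal libraries overlapped above the model libraries, which lay apart from normal ones for 61.3% of all genes and from TA ones for 39.0%. Pipox fell in model against normal livers (-1.91 ± 0.22, adjusted p = 4.56e-05) and rose in TA against model livers (1.73 ± 0.22, adjusted p = 0.00163). Aldh1l2, a mitochondrial folate enzyme, went the other way in TA against model livers, at 0.473 ± 0.241 CPM in TA and 1.77 ± 0.900 CPM in model livers (mean ± SD, n = 3; log2 fold change -1.88 ± 0.57, adjusted p = 0.0347), a call lost in 8 settings, over a range of 0.0075 to 0.121. For model against normal its log2 fold change was 0.57 (adjusted p = 0.385).

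Among 13 further enzymes of phosphatidylcholine and phosphatidylethanolamine synthesis, 8 fell and 2 rose in model against normal livers (median -0.75), and 6 rose and 0 fell in TA against model livers (median 0.48). The shares over all genes were 22.6% lower and 25.4% higher in the former comparison, and 11.8% higher and 11.1% lower in the latter. With library totals the counts were 3 fell and 3 rose (median -0.05), and 2 rose and 3 fell (median -0.06), so the direction of this group depended on the scaling. Pemt, which makes phosphatidylcholine by methylating phosphatidylethanolamine, averaged 131 ± 41.4 CPM in model and 309 ± 31.7 CPM in normal livers (SD, n = 3) and fell under both scalings (log2 fold change -1.24 ± 0.22, adjusted p = 0.000863, or adjusted p = 0.0166 with library totals). Selenoi, the ethanolamine phosphotransferase, fell likewise (-1.39 ± 0.20, adjusted p = 0.000264). Pcyt1b, the minor relative of Pcyt1a, rose to 1.15 ± 0.690 CPM in model livers, against 0.233 ± 0.0196 CPM in normal livers (2.29 ± 0.66, adjusted p = 0.014), a call lost with limma-voom and without model replicate 1, over a range of 0.00333 to 0.069.

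In TA against model livers, Chpt1, the choline phosphotransferase that completes phosphatidylcholine, stood at 118, 214 and 292 CPM in TA and at 56.7, 95.7 and 68.2 CPM in model replicates 1 to 3 and rose (1.5 ± 0.30, adjusted p = 0.00664). The groups did not overlap, as for 39.0% of all genes in that comparison. Etnk2, a liver ethanolamine kinase, rose as well (1.21 ± 0.26, adjusted p = 0.00898). Pisd, which decarboxylates phosphatidylserine in mitochondria, had the smallest p in the other direction, at -0.33 ± 0.17 (adjusted p = 0.182), and was called lower with library totals (-0.89, adjusted p = 0.00461).

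Of 8 tested acyltransferases and remodelling enzymes other than Lpcat3, 4 rose and 3 fell in model against normal livers, and 1 rose and 2 fell in TA against model livers. With library totals 4 rose and 1 fell, and 1 rose and 4 fell. The shares over all genes were 25.4% higher and 22.6% lower, and 11.8% higher and 11.1% lower. With library totals 7269 of 13200 genes rose and 831 fell, and 401 rose and 5721 fell. Lpcat2, the acyltransferase that also makes platelet-activating factor, had 22.03, 12.4 and 16.9 CPM in model replicates 1 to 3 against 3.24, 3.32 and 1.93 CPM in normal replicates, and rose (2.60 ± 0.30, adjusted p = 5.64e-05). Lpcat1, known for the lipid of lung surfactant, rose too (2.33 ± 0.29, adjusted p = 8.37e-05). In TA against model livers Lpcat1 (-1.53 ± 0.27, adjusted p = 0.00435) and Lpcat2 (-1.34 ± 0.28, adjusted p = 0.00806) fell. Both moved opposite to Lpcat3 in model against normal livers, though Lpcat3 crossed 0 with library totals. Macrophage marker sums moved with them, at 931 to 1420 CPM in TA, 2060 to 2440 CPM in model and 266 to 280.2 CPM in normal libraries, with none of the 8 markers at 0. All 8 rose in model against normal livers and 6 fell in TA against model livers. In model against normal livers 7 of 8 stellate cell, 6 of 7 tested cholangiocyte, 4 of 6 endothelial and 4 of 4 tested neutrophil markers rose as well. In TA against model livers 3 endothelial markers and 1 neutrophil marker fell and 0 stellate cell or cholangiocyte markers did. The part of these cells in the results was not tested. Lcat, which esterifies plasma cholesterol with a fatty acid of phosphatidylcholine, fell in model against normal livers (-1.07 ± 0.20, adjusted p = 0.00142) and rose in TA against model livers (1.31 ± 0.21, adjusted p = 0.00291).

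**Figure D4:**
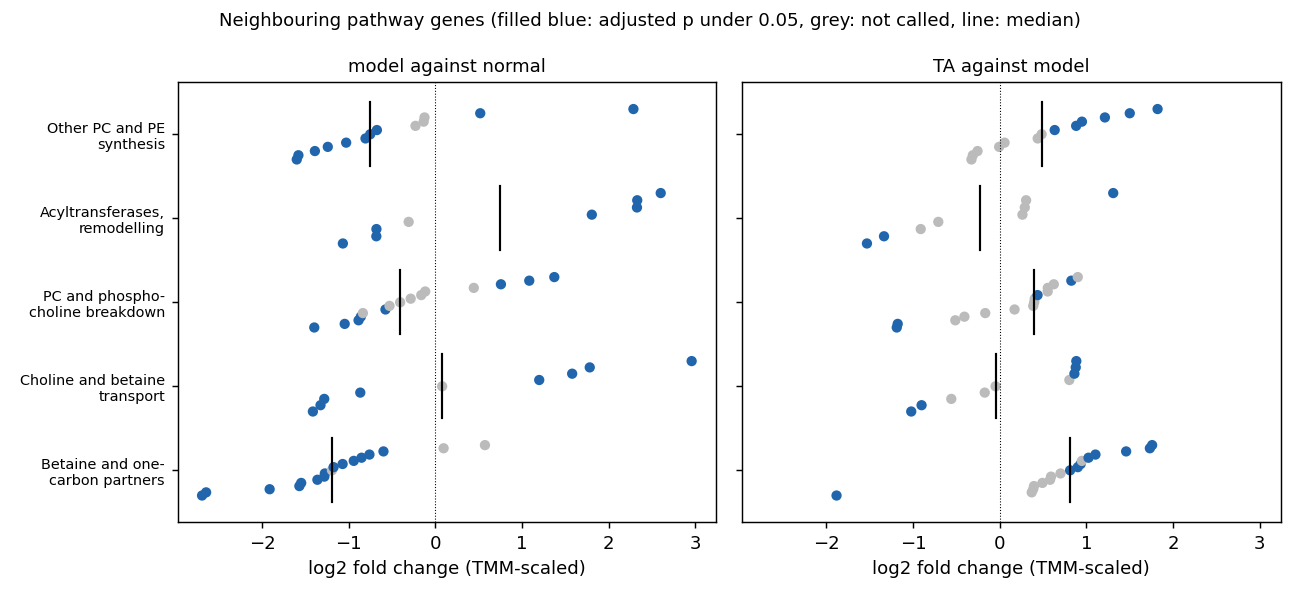
Log2 fold changes (TMM-scaled) of the genes of 5 neighbouring lists in model against normal (left) and TA against model livers (right); each point is a gene, blue where the adjusted p was under 0.05, and black lines are list medians. Of the 17 partners of choline oxidation, 14 are called below 0 on the left and 8 above 0 on the right.

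In the authors' deposited tables, 7 of the 9 genes were lower and 0 higher in model against normal livers at an adjusted p under 0.05, the 6 above and Pcyt1a (a ratio of 0.681, adjusted p = 0.0213), where the authors' deposited table has 14.9% of its genes lower and 17.3% higher. In the authors' deposited table of TA against model livers 4 were higher and 0 lower, against 5.34% and 5.52% of its genes. They were Sardh, Aldh7a1, Dmgdh and Chdh, and Chka had a ratio of 0.387 there with an adjusted p of 0.327.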

How the data were processed

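Liver RNA was measured in 9 libraries, 3 per group, grouped by their titles. Per the labels, the RNA came from a Trizol extraction and the libraries from a NEBNext Ultra kit, and the submitters' processing notes name mm9. For the aligner, the counter and the use of strand, the answer is not given in the sources used here. Reads of a gene and of a partner on the other strand therefore cannot be told apart, and up to 10.2% of the exonic bases of a tested gene are shared with such a partner (Lpcat3 with Emg1). The deposited expression table holds raw read counts per gene by the authors, used for all tests, and FPKM values by the authors, not used. The authors' deposited comparison tables (made with DESeq, per the labels) give group means of scaled counts as a signal, a fold change as a ratio and p-values, quoted only where named. Listed lengths equal the exonic lengths of GENCODE M21 for 9 of 9 genes and listed starts equal those on GRCm38 for 0, so coordinates are those of GENCODE M21.

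Counts were fitted in R 4.3.3 with edgeR 4.0.16 (filterByExpr, minimum count 10 and total 15; TMM factors; quasi-likelihood test, group as the only factor, all 9 libraries), with Benjamini-Hochberg adjustment over 13200 genes and a threshold of 0.05. The standard error is the log2 fold change divided by the square root of F, and intervals use the fit's degrees of freedom. The 9 genes and the lists were chosen with earlier results of these data known. Alternatives were DESeq2 1.42.0 size factors and Wald test, limma-voom (limma 3.58.1), library totals, no filter or a stricter one (10 counts in every library of a group), only the libraries compared, a replicate block and each library left out. The fit was tested on simulated data. From each of the 5 lists, the genes named are those with the 2 smallest p in each main comparison and the smallest in the other direction; pattern matches are the 2 highest correlations of log2 CPM (prior count 2) among genes of at least 10 CPM. Bhmt is named outside the rule for list genes. Of the lists' 67 genes, 66 were found. Protein sequences were not used here.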

Additional observations from a re-analysis of the deposited data

How the results depend on the processing

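With scaling by library totals, 3 rather than 6 of the genes were called lower in model against normal livers and 2 rather than 5 higher in TA against model livers. Over all genes it gave 7269 higher and 831 lower calls in model against normal (3357 and 2987 with TMM), 401 and 5721 in TA against model (1562 and 1469), and 416 lower in TA against normal (664). The share of calls that were higher was 89.7% (52.9% with TMM), 6.55% (51.5%) and 78.4% (68.1%). Library totals also turned the log2 fold changes of Pcyt1a to 0.12 and of Lpcat3 to 0.0517 in model against normal, to -0.46 and -0.19 in TA against model, and of Chdh to 0.0867 in TA against normal. A fit of only the 6 libraries compared called 3 genes higher in TA against model. With the replicate block the count was 3 as well and 434 of all genes were lower in TA against normal. Replicate numbers were not treated as pairs: the labels give them no shared mouse or date, and only 1 of the 9 correlations between equally numbered libraries was above 0.1. For TA against normal, 1 gene, Chka, was called lower with DESeq2 size factors, with no filter on low counts, with only the 6 libraries compared, with the DESeq2 Wald test (1056 of all genes lower) and with limma-voom, against 0 in the edgeR test reported.

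When each library was left out in turn, the genes called higher in TA against model numbered 2 to 6 and those called lower 0 to 1, and 0 to 2 were called lower in TA against normal. Over all genes the counts were 656 to 2074 higher and 702 to 1719 lower in TA against model, and 782 to 1595 higher and 310 to 872 lower in TA against normal. The log2 fold change of Chka in model against normal ranged from -0.32 (without model replicate 3) to 0.48, that of Pcyt1a in TA against model from -0.16 (without TA replicate 1) to 0.29, and that of Chdh in TA against normal from -0.29 to 0.0882 (without normal replicate 3). The causes of these changes were not tested. Among the 9 genes, Chkb stood below the filter on low counts, as did 4 genes of the lists, and why their counts were low was not tested.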

Other observations

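Genes that carry choline and betaine across membranes went both ways. Of 9 tested, 4 rose and 4 fell in model against normal livers (5 rose and 2 fell with library totals), and 3 rose and 2 fell in TA against model livers (0 rose and 3 fell with library totals). The shares over all genes were 25.4% higher and 22.6% lower, and 11.8% higher and 11.1% lower. With library totals 7269 of 13200 genes rose and 831 fell, and 401 rose and 5721 fell. Slc44a2, a choline transporter of plasma membrane and mitochondria, stood at 20.3, 21.6 and 16.8 CPM in TA, at 45.6, 28.7 and 35.3 CPM in model and at 11.4, 12.7 and 12.6 CPM in normal replicates 1 to 3, with no overlap between the 3 groups. Groups lay apart for 61.3% of all genes in model against normal, 39.0% in TA against model and 36.1% in TA against normal livers. Slc44a2 rose in model against normal livers (log2 fold change 1.58 ± 0.19, adjusted p = 6.57e-05) and fell in TA against model livers (-0.90 ± 0.18, adjusted p = 0.00696). Flvcr1, a choline importer, moved the same way, at 1.78 ± 0.20 (adjusted p = 3.63e-05) and -1.02 ± 0.19 (adjusted p = 0.00492). Slc25a48, a carrier of the inner mitochondrial membrane linked to choline import, went the other way, at -1.28 ± 0.22 (adjusted p = 0.000694) and 0.86 ± 0.22 (adjusted p = 0.0171). Macrophage markers moved in the same directions as Slc44a2 and Flvcr1, 8 of 8 rising in model against normal livers and 6 falling in TA against model livers, as did 4 and 3 of 6 endothelial markers, and their part was not tested. Slc25a48 was no longer called higher with library totals (0.28, adjusted p = 0.344), without model replicate 1 and without TA replicate 2, over a range of 0.00634 to 0.344.

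Among 15 tested genes of phosphatidylcholine and phosphocholine breakdown, 3 rose and 5 fell in model against normal livers, or 6 rose and 0 fell with library totals. In TA against model livers 2 rose and 2 fell, or 0 rose and 5 fell with library totals. The shares over all genes were 25.4% higher and 22.6% lower in model against normal livers. In TA against model livers they were 11.8% and 11.1%. With library totals 7269 of 13200 genes rose and 831 fell in the former comparison, and 401 rose and 5721 fell in the latter. Pla2g15, a lysosomal phospholipase, rose in model against normal livers (1.37 ± 0.19, adjusted p = 0.000157) and fell in TA against model livers (-1.19 ± 0.18, adjusted p = 0.00277), the directions of the macrophage markers, whose part was not tested here either. Smpd1, the acid sphingomyelinase, fell in model against normal livers (-0.89 ± 0.16, adjusted p = 0.00116), a call lost with library totals (adjusted p = 0.345), over a range of 1.01e-05 to 0.345. In TA against model livers Pld1, a phospholipase D, fell (-1.18 ± 0.26, adjusted p = 0.00987) and Pla2g6 rose (0.83 ± 0.19, adjusted p = 0.0124), a call of Pla2g6 lost with library totals (0.27, adjusted p = 0.305) and without model replicate 1, over a range of 0.00218 to 0.305.

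Over the 9 libraries, whose log2 CPM share the same 3 groups, Sardh and Aldh7a1 were each other's closest match among 8178 genes (Pearson's r = 0.996). The closest to Dmgdh was Hspd1 (r = 0.995), to Pcyt2 Ppa2 (0.987), to Chdh Lrp3 (0.975), to Pcyt1a Fbxw5 (0.984), to Lpcat3 Clcc1 (0.985) and to Chka Atp6v0a1 (0.972). The next in each case were Ndrg2 for Sardh (0.996), Acsm3 for Aldh7a1 (0.995), Pid1 for Dmgdh (0.992), H2-Q10 for Pcyt2 (0.987), Dnpep for Chdh (0.973), Cand1 for Pcyt1a (0.981), Spryd4 for Lpcat3 (0.984) and Pdk4 for Chka (0.967). Between members, r with Sardh was 0.99 for Dmgdh, 0.932 for Pcyt2, 0.904 for Lpcat3, 0.884 for Chdh, 0.567 for Pcyt1a and -0.346 for Chka.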
